A study of Mus musculus with 2 samples.

Results

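Levels are described for 8 microRNA genes that have been reported to change when the heart or other tissues are stressed, namely Mir34a, Mir34b, Mir34c, Mir132, Mir212, Mir210, Mir328 and Mir320. They were chosen by gene symbol for their reported links to p53, hypertrophy, hypoxia or arrhythmia, and make up 8 of the 2202 microRNA genes counted. The short RNA came from hearts of B6CASTF1/J females, offspring of a C57BL/6J and a CAST/EiJ parent, at an age of 2 months. There is 1 group of 2 libraries, called replicate 1 and replicate 2, which are numbered as different females but carry 1 donor label, so it is uncertain that they came from separate animals. The labels name no stress, treatment or disease, and no stressed heart was analysed here, so the values are levels in tissue with no labelled treatment and no rise of any gene could be tested.

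A microRNA gene is transcribed into a hairpin that is cut to a mature strand of about the size read here. The mature strand guides the silencing complex to messages that pair with its seed, the bases near its 5′ end, so genes with a shared seed are expected to share targets. Stress can act on such genes at the promoter: p53 drives the miR-34 genes after DNA damage, CREB drives the transcript that carries miR-132 and miR-212, and hypoxia-inducible factor drives miR-210.

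The mature sequences show which of these genes could act on the same messages. RefSeq (build GRCm38.p6, the assembly also called mm10) held 11 mature sequences for 6 of the 8 genes, without Mir328, Mir320 and miR-34c-5p, whose seeds were therefore not compared. The strands that share a seed with another gene, and miR-210-3p, are printed from 5′ to 3′ with the seed (bases 2 to 8) in capitals, and a relative from outside the group, miR-449a-5p, stands beside the miR-34 strands.
miR-34a-5p: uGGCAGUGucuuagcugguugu
miR-34b-5p: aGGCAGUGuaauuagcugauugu
miR-449a-5p: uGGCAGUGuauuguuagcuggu
miR-34b-3p: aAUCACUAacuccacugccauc
miR-34c-3p: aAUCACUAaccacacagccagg
miR-132-3p: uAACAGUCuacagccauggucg
miR-212-3p: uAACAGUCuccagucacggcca
miR-210-3p: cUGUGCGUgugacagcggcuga

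miR-34a-5p (chr4:150068473-150068494, plus strand) and miR-34b-5p (chr9:51103610-51103632, minus strand) share 1 seed with miR-449a-5p (chr13:113037549-113037570, plus strand) and miR-449c-5p. Compared position by position without gaps, 11 of 22 bases are the same in miR-34a-5p and miR-34b-5p, and 15 of 22 in miR-34a-5p and miR-449a-5p. Because miR-34b-5p has 23 bases and miR-34a-5p has 22, an extra base would shift the later positions. The ungapped counts therefore do not measure how alike these strands are outside the seed. miR-34b-3p (chr9:51103574-51103595) and miR-34c-3p (chr9:51103044-51103065), both on the minus strand, share another seed, which no further mature sequence in the table has. miR-132-3p (chr11:75173723-75173744) and miR-212-3p (chr11:75173443-75173464), both on the plus strand, were identical at 17 of 22 positions. Counted from 1 at the 5′ end, with the miR-132-3p base first, they differed by A10C, C14U, U17C, U20C and G22A, all outside the seed. The seed of miR-210-3p (chr7:141221407-141221428, minus strand) was found in no other mature mouse sequence of the table. Counts were made per hairpin gene, so the 5′ and 3′ strands of a gene cannot be told apart in the levels below.

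The libraries held 8069273 reads in replicate 1 and 7995058 in replicate 2, of which 2424441 and 2770301 lay on the own strand of a single microRNA gene. Levels are given as CPM, the counts after scaling that microRNA total to 1000000. Reads that mapped to several places, 49.5% of replicate 1 and 42.7% of replicate 2, were counted for no gene. None of the 8 hairpins holds a stretch of 20 bases found in a hairpin at another place, whereas 1087 of the 2202 genes do. Genes with such a stretch may be undercounted, which can raise the CPM, ranks and summed share of the 8 genes given below. The tissue label was matched by the heart muscle markers Mir208a and Mir499, which both passed 10 counts in each library; the summed level of the 3 heart muscle markers came to 5980 CPM in replicate 1 and to 8546 CPM in replicate 2. Its members went opposite ways, with Mir208a at 1542 and 5865 CPM, Mir499 at 4354 and 2641 CPM and Mir208b at 84.1 and 39.3 CPM. The libraries differed in markers of other cell types. The 3 erythroid markers summed to 11488 CPM in replicate 1 and 95604 CPM in replicate 2. Most of this was Mir451a (7816 and 86827 CPM), with Mir144 at 1963 and 6858 CPM, while Mir486 changed little (1710 and 1919 CPM). The 6 fibroblast markers, of which 4 were detected, summed to 11329 and 2594 CPM. Mir21a alone had 10018 and 1810 CPM of this and is also counted below among further hypertrophy genes. Mir214 and Mir152 went the same way. The 4 endothelium markers summed to 77007 and 88163 CPM, nearly all from Mir126a (73653 and 85269 CPM). Mir221 (3206 and 2812 CPM) and Mir222 (147 and 80.9 CPM) went the other way. The 2 smooth muscle markers summed to 50667 and 44521 CPM, mostly from Mir143 (48716 and 43522 CPM), while Mir145a had 1951 and 998 CPM. The 4 matched leukocyte markers summed to 5489 and 4241 CPM. Among them Mir155 changed little (2088 and 2027 CPM). Mir150 (1897 and 1335 CPM), Mir142 (1299 and 840 CPM) and Mir223 (205 and 39.0 CPM) were higher in replicate 1.

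Of the 8 genes, 7 were detected, meaning at least 10 counts in both libraries, against 13.9% of all microRNA genes. Among the 1115 microRNA genes that, like these 8, share no stretch of 20 bases with another hairpin, 236 were detected. The summed share of the 8 genes in microRNA counts was 0.898% in replicate 1 (95% exact Clopper-Pearson interval 0.886 to 0.910) and 1.01% in replicate 2 (1.00 to 1.03). Its mean was 0.956% ± 0.0816 (SD, n = 2). Intervals here and below cover counting error only, since the counts are of reads and not of molecules. Mir320, Mir328 and Mir34a together made up 89.0% of the reads of the 8 genes in replicate 1 and 92.5% in replicate 2. Levels spanned more than 3 orders of magnitude, from Mir320 at a mean of 3870 CPM to Mir34b at 0.980 CPM, so the genes grouped under stress did not share a level.

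**Figure D1:**
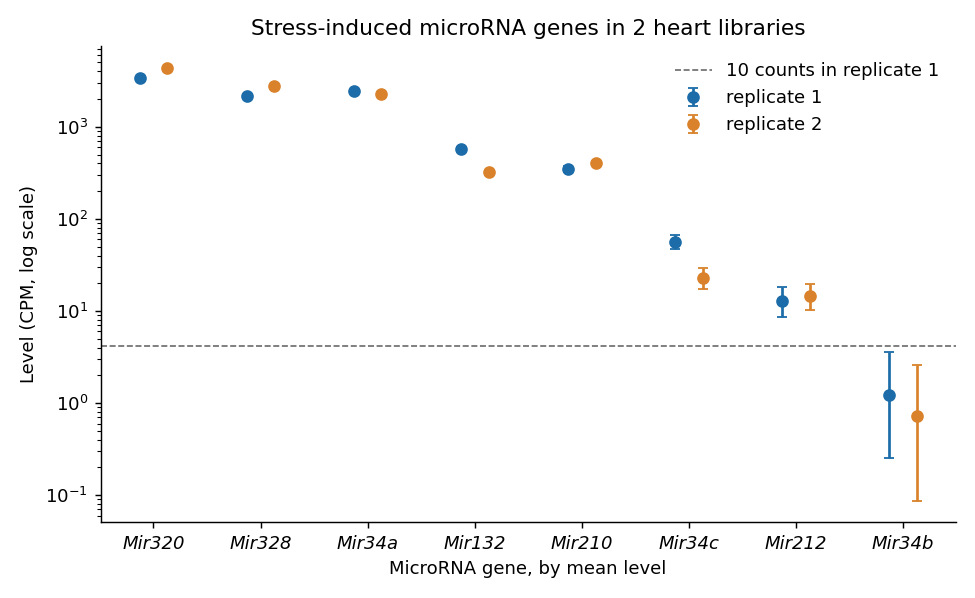
Level of each of the 8 genes (CPM, log axis) in replicate 1 (left point of each pair) and replicate 2 (right point), with bars for the exact Poisson 95% interval of the count; the dashed line marks 10 counts in replicate 1, 4.12 CPM. Mir320, Mir328 and Mir34a lie at 2137 CPM or higher in both libraries, and Mir34b alone lies below the line.

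The miR-34 family was represented almost wholly by Mir34a, a p53 target that represses Bcl2 and Sirt1 and has been linked to ageing of the heart. It had 5893 counts in replicate 1 and 6249 in replicate 2, or 2431 and 2256 CPM, a mean of 2343 ± 124 CPM (SD, n = 2). Its SD was 5.28% of the mean, the smallest spread of the 8 genes. Mir34a ranked 48 of 2202 genes by mean level, at or above 84.6% of the 306 detected genes. Its hairpin lies on mm10 chromosome 4 at 150068454 to 150068555, where 17 bases of its end overlap the exon of an annotated transcript of unknown type, Gm37795, on the same strand.

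Mir34c and Mir34b, which lie 451 bases apart on the minus strand of chromosome 9 and are known as 1 transcript with strong expression in testis and airway cells, stood far lower. Mir34c (51103034 to 51103110) had 136 and 63 counts, or 56.1 CPM in replicate 1 and 22.7 CPM in replicate 2, a mean of 39.4 ± 23.6 CPM. Its SD was 59.8% of the mean, the largest spread of the 8 genes. Mir34b (51103562 to 51103645) had 3 and 2 counts, at 1.24 and 0.722 CPM; it was thus read in both libraries but below the 10 counts asked for detection, with exact Poisson intervals of 0.255 to 3.62 CPM in replicate 1 and 0.0874 to 2.61 CPM in replicate 2. Both hairpins lie in an intron of the gene Btg4, on its opposite strand.

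In replicate 1 Mir34a exceeded Mir34b and Mir34c together 42.4-fold (exact interval 35.8 to 50.5), and in replicate 2 it did so 96.1-fold (75.3 to 125). Within the pair, Mir34c exceeded Mir34b 45.3-fold in replicate 1 (interval 15.2 to 223) and by 31.5-fold in replicate 2 (8.37 to 266). Both libraries thus ordered the family alike, with Mir34a first, Mir34c next and Mir34b last. The ratio of Mir34c to Mir34b did not differ detectably between the libraries, 1.44-fold with an adjusted p of 0.655 by Fisher's exact test over 2 pairs, where 5 Mir34b counts in all limit the precision.

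The seed relatives of the family were read beside it. Mir449a, a gene of multiciliated cells, had 127 counts in replicate 1 and 108 in replicate 2 (52.4 and 39.0 CPM). Mir449b and Mir449c had no count in either library. For these a bound of 3 counts was used in place of an exact interval, 1.24 CPM in replicate 1 and 1.08 CPM in replicate 2. Mir34a was 46.4-fold above Mir449a in replicate 1 and 57.9-fold in replicate 2. The ratio of Mir449a to Mir34c was 0.934 in replicate 1, with an interval of 0.727 to 1.20 that includes equality. In replicate 2 it was 1.71, with an interval of 1.25 to 2.38 that does not.

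Mir132 and Mir212 are cut from 1 noncoding transcript, 1700016P03Rik, on the plus strand of chromosome 11, in whose intron both hairpins lie 203 bases apart. The pair is known for repressing Foxo3, and raising it in mouse heart muscle leads to hypertrophy. Mir132 (75173682 to 75173747) had 1392 counts in replicate 1 and 885 in replicate 2, or 574 and 319 CPM, a mean of 447 ± 180 CPM. Mir212 (75173388 to 75173478) had 31 and 40 counts, or 12.8 and 14.4 CPM, a mean of 13.6 ± 1.17 CPM. Although they share a transcript and a seed, Mir132 was counted 44.9 times as often as Mir212 in replicate 1 (exact interval 31.5 to 66.3), and 22.1 times as often (16.1 to 31.2) in replicate 2. This ratio does not depend on how the libraries are scaled, and it was 2.03-fold higher in replicate 1, with an adjusted p of 0.00850 by a two-sided Fisher's exact test over 2 pairs. The test compares the reads of 2 libraries and no conditions.

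Mir210, the best known microRNA of the hypoxia response, which represses the iron-sulfur cluster protein Iscu, was read without any labelled hypoxia. It had 840 counts in replicate 1 and 1124 in replicate 2, or 346 and 406 CPM, a mean of 376 ± 41.9 CPM. This placed it at rank 93 of 2202 genes, at or above 69.9% of detected genes. The hairpin lies on chromosome 7 at 141221384 to 141221493 on the minus strand, overlaps no annotated gene, and is 2725 bases from Rassf7.

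Mir320 was the most abundant of the 8 genes. Its hairpin is known to be made without the Drosha complex, and in mouse heart it has been tied to ischaemic injury through the heat shock protein Hspb6. Mir320 had 8298 counts in replicate 1 and 11961 in replicate 2, or 3423 and 4318 CPM, a mean of 3870 ± 633 CPM at rank 36. It lies on the plus strand of chromosome 14 at 70443510 to 70443591, with 62 bases between its hairpin and Polr3d, an RNA polymerase III subunit gene on the other strand.

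Mir328, reported to rise in atrial fibrillation and to repress the L-type calcium channel gene Cacna1c, was the next by mean level. It had 5182 counts in replicate 1 and 7756 in replicate 2, or 2137 and 2800 CPM, a mean of 2469 ± 468 CPM at rank 47. The hairpin (chromosome 8, 105308364 to 105308460, minus strand) lies within Elmo3 on the opposite strand, where 12 of its 97 bases reach into an exon. None of the 8 genes had a read on its opposite strand in either library.

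**Figure D2:**
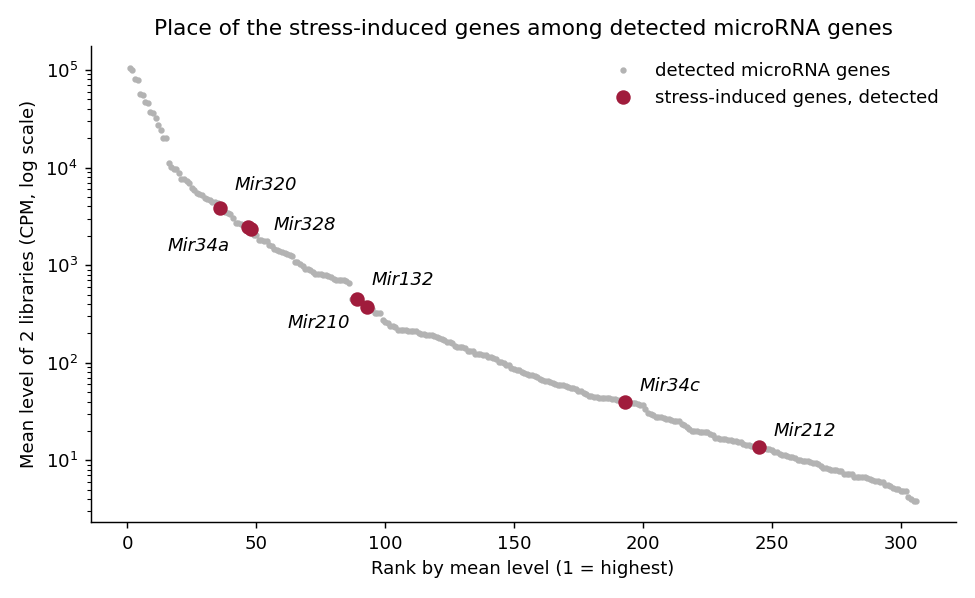
Mean level over both libraries (CPM, log axis) of the 306 detected microRNA genes against their rank, with the 7 detected stress-induced genes in red. Mir320, Mir328 and Mir34a fall at ranks 36 to 48, Mir132 and Mir210 at ranks 89 and 93, and Mir34c and Mir212 at ranks 193 and 245.

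Read from the highest mean level, the order was Mir320, Mir328, Mir34a, Mir132, Mir210, Mir34c, Mir212 and Mir34b. Of the 7 neighbouring pairs, those of Mir328 with Mir34a and of Mir132 with Mir210 changed order between the libraries. The ratio of Mir328 to Mir34a came to 0.879 in replicate 1 (0.847 to 0.913 by counting error) and to 1.24 in replicate 2 (1.20 to 1.28). For Mir132 over Mir210 it was 1.66 in replicate 1 (1.52 to 1.81) and 0.787 in replicate 2 (0.720 to 0.861). Neither of these pairs has an order beyond the spread of the libraries. Mir320 exceeded Mir328 in both, 1.60-fold and 1.54-fold, and Mir34c exceeded Mir212 4.39-fold in replicate 1 and 1.58-fold in replicate 2 (1.04 to 2.40). A microRNA read covers a whole mature strand, so counts were not divided by length. Per 100 bases of hairpin the mean order was the same, for example 4720 CPM for Mir320, 2545 for Mir328, 2297 for Mir34a, 677 for Mir132 and 342 for Mir210.

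For each detected gene, the gene outside the group whose levels in both libraries were nearest was found by the distance between log2 CPM values over the 2 libraries. The gene nearest to Mir320 was Mir100 (3350 and 5493 CPM, distance 0.35), and Mir155 was nearest both to Mir328 (distance 0.47) and to Mir34a (distance 0.27), at 2088 and 2027 CPM. Mir132 lay nearest to Mir872 (461 and 321 CPM), and Mir210 to Mirlet7c-1 (443 and 418 CPM), whose hairpin shares bases with other let-7 hairpins and may be undercounted. Mir34c lay nearest to Mir1a-2 (141 and 67 counts against its own 136 and 63), which shares bases with Mir1a-1 and may also be undercounted. Mir212 lay nearest to Mir3061 (33 and 38 counts). With 2 libraries such nearness describes level and 1 difference only.

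Comparison of the libraries asked how far these levels held from 1 sample to the other. For each of the 306 detected genes, the split of its counts between the libraries was set against the split of the totals in an exact binomial test (two-sided), and p-values were adjusted over all 306 by Benjamini-Hochberg. Of the 7 detected stress-induced genes, 6 passed an adjusted p of 0.05, against 61.1% of all detected genes, and 2 also differed by at least 1.5-fold, against 36.6%. Both were higher in replicate 1, against 25.5% of detected genes called in that direction, and 0 of 7 were called lower there, against 11.1%. With 7 genes, 2 called is near the background of 36.6%, and the group did not stand apart from other detected genes in this count. The median log2 ratio of replicate 1 over replicate 2 was -0.18 over the 7 genes and 0.19 over all 306.

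Mir34c was 2.47-fold higher in replicate 1 (exact interval 1.82 to 3.38; log2 difference 1.30, adjusted p = 2.65e-09 by the exact binomial test), which ranked it 27 of 306 by absolute log2 difference. Mir132 was 1.80-fold higher (1.65 to 1.96; log2 difference 0.85, adjusted p = 9.04e-43 by the same exact test). Mir34a, at a log2 difference of 0.11, passed the test with a fold of 1.08 (1.04 to 1.12), but this direction turned under all 3 other scalings tried and in the counts of either strand. Mir320, Mir328 and Mir210 had folds of 0.793, 0.763 and 0.854 for replicate 1 over replicate 2 and passed the test, all below 1.5-fold. Mir212 did not pass: its fold was 0.886 with an interval of 0.536 to 1.45 (adjusted p = 0.716 by the exact test). Mir34b was not tested.

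**Figure D3:**
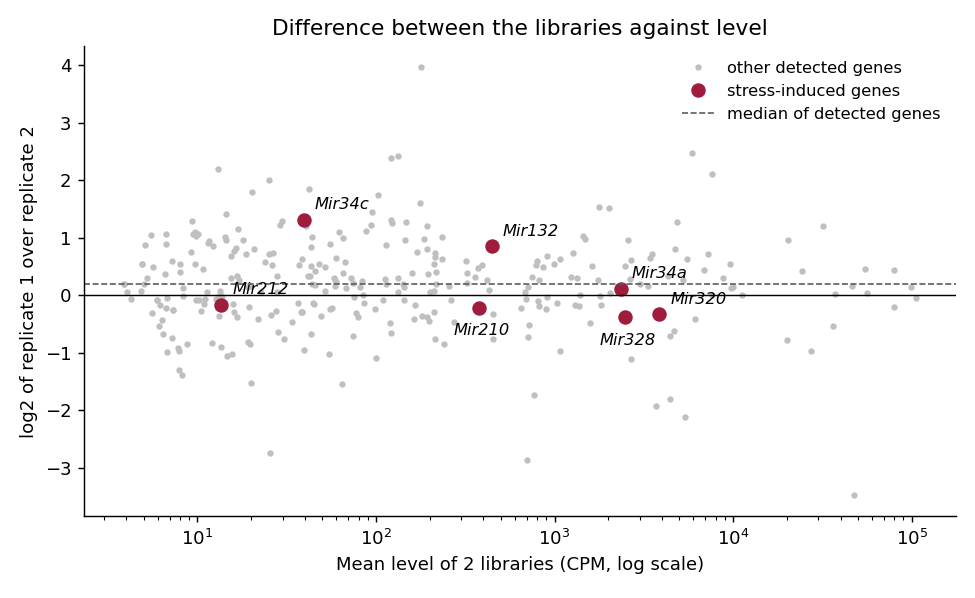
Difference of replicate 1 over replicate 2 (log2 ratio of CPM) against mean level (CPM, log axis) for the 306 detected genes, with the 7 stress-induced genes in red. The solid line marks no difference and the dashed line the median of all detected genes, 0.19; Mir34c and Mir132 lie above both lines, and the other 5 lie below the median.

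The scale of the libraries bears on these values, because Mir451a alone took 0.782% of the microRNA counts of replicate 1 and 8.68% of replicate 2. Scaling with TMM factors moved the median log2 difference of all genes to -0.03, and DESeq2 size factors moved it to 0. With TMM factors 15.0% of detected genes were called higher and 17.0% lower in replicate 1, and with DESeq2 factors 16.0% and 15.7%. Mir34c and Mir132 were called higher in replicate 1 under each of these scalings and with Mir451a left out of the totals, where 19.6% of detected genes were called in that direction. Mir34c was 2.12-fold higher with TMM factors and Mir132 1.54-fold. Mir328 had a log2 difference of -0.61 with TMM factors and was then called lower in replicate 1. With DESeq2 factors its fold was 0.669 and it was not called. The log2 difference of Mir34a became -0.11 with TMM factors, -0.08 with DESeq2 factors and -0.01 without Mir451a.

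**Figure D4:**
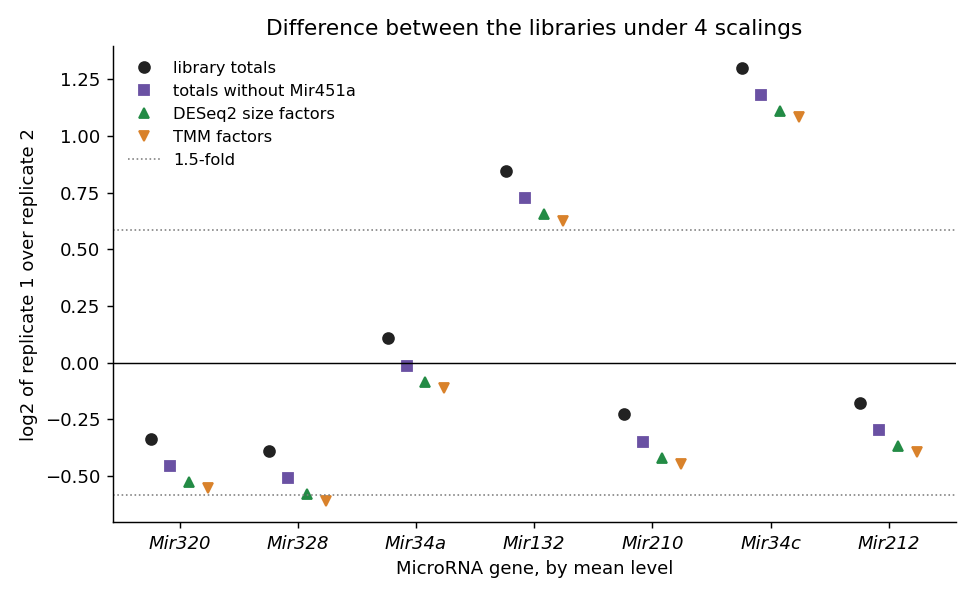
log2 difference of replicate 1 over replicate 2 for the 7 detected genes under 4 scalings (library totals, totals without Mir451a, DESeq2 size factors, TMM factors); dotted lines mark 1.5-fold. Mir34c and Mir132 lie above the upper line under all 4, Mir328 lies below the lower line with TMM factors alone, and Mir34a lies on both sides of 0.

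Markers of other cell types were read beside these differences. For Mir34c, 6 of the 10 markers of ciliated and other epithelia were detected, and they summed to 391 CPM in replicate 1 and 408 CPM in replicate 2, with Mir449b and Mir449c at 0. Within this list Mir200c, the highest by mean, had 159 and 269 CPM and was called lower in replicate 1, whereas Mir203, an epithelial gene named after its values were seen, had 139 and 51.3 CPM and was called higher there, 2.71-fold, as Mir34c was. The nearly equal sums thus hold changes in both directions, and their part in the difference of Mir34c was not tested. For Mir132, which is also abundant in neurons, 3 of the 9 matched neuron markers were detected, and the list summed to 117 CPM in replicate 1 and 112 CPM in replicate 2. Mir138-1, the highest by mean, had 42.5 and 46.6 CPM, while Mir137, also named after its values were seen, had 50.7 and 35.7 CPM, a fold of 1.42 (adjusted p = 0.0188 by the exact binomial test) that lay under the 1.5-fold asked for a call. Their part in the difference of Mir132 was not tested. The 3 Mir124a genes were at 0, but they share bases with each other, so their reads may be uncounted. Such sharing held for 8 of the 9 matched neuron markers, Mir138-1 among them, and not for Mir137. The sum of the neuron list may therefore be undercounted. The fibroblast markers summed higher in replicate 1 and the erythroid markers in replicate 2, each sum mostly from 1 gene. Their part in the differences of the stress-induced genes was not tested. In tissue RNA, fewer cells of a type and less RNA per cell cannot be told apart.

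Other microRNAs that have been tied to the same stresses gave context. They stand in lists that were chosen with earlier results of these data known. Of 7 further p53-responsive genes all were detected, led by Mir143 at 46119 ± 3672 CPM, and 2 were called higher in replicate 1 and 0 lower, or 1 and 0 with TMM factors. Of 14 further hypertrophy genes 12 were detected, led by Mir23b at 37338 ± 185 CPM, with 7 called higher in replicate 1 and 0 lower, or 5 and 1 with TMM factors. Of the 8 entries of the hypoxia list 6 matched a gene, all 6 were detected, led by Mir26b at 20287 ± 9132 CPM, and 3 were called higher and 0 lower under library totals, TMM and DESeq2 factors. Of 11 further arrhythmia genes 7 were detected, led by Mir93 at 10037 ± 683 CPM, with 4 higher and 1 lower, or 2 and 1 with TMM factors. Mir23b shares bases with Mir23a, so its level is uncertain. Such sharing held for 3 genes of the p53 list and 7 of the hypertrophy list. It also held for 1 of the hypoxia list and 6 of the arrhythmia list. The undetected Mir199a-1, Mir199a-2, Mir1a-1, Mir133a-1, Mir133a-2 and Mir26a-1 are all among them, so their low counts do not measure their level. Over all detected genes, 25.5% were called higher and 11.1% lower in replicate 1 with library totals, and 15.0% and 17.0% with TMM factors, and 13.9% of all microRNA genes were detected. In each of the 4 lists the leading gene had a higher mean level than the highest of the 8 genes, Mir320, and the median log2 difference was 0.16 in the p53 list, 0.74 in the hypertrophy list, 0.71 in the hypoxia list and 0.64 in the arrhythmia list, against 0.19 over all detected genes and -0.18 over the 7 stress-induced genes.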

How the data were processed

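Deposited values are raw read counts per microRNA gene, without normalization, in 2 tables of 1 library each. The build, mm10, and GENCODE release M21 are named per the labels and in text deposited with the tables. For aligner, counter and trimming, names and versions are not stated in those sources. The 3 count columns have no header and were read from their values as either-strand, own-strand and opposite-strand counts; own-strand counts were used. Lines that name no gene held 70.0% and 65.3% of reads in replicates 1 and 2 and were left out.

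The members and lists were chosen with earlier results of these data known. CPM used the own-strand microRNA total. Detection needed 10 counts in both libraries. Differences used two-sided exact binomial tests with Benjamini-Hochberg adjustment at 0.05, also counted from 1.5-fold. With 1 group, edgeR and DESeq2 gave scaling factors only. A chi-square test over genes gave 893 per degree of freedom, so the libraries were not copies. P-values set the difference between 2 libraries against counting error only, and that difference may be technical. Named genes were all 8 members, the nearest detected gene to each, and the leading gene of each list, with the Mir449 genes. Further list genes, such as Mir203, Mir137, Mir208b, Mir499, Mir144, Mir486, Mir221, Mir222, Mir145a, Mir142, Mir150 and Mir223, were added after their values were seen. The alternatives tried were counts on either strand, other count minimums, other scalings and denominators, thinning, hairpin length and each library alone. Software was Python 3.11.15, numpy 2.4.6, pandas 2.3.3, scipy 1.17.1, matplotlib 3.10.9, R 4.3.3, edgeR 4.0.16 and DESeq2 1.42.0.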

Additional observations from a re-analysis of the deposited data

How the results depend on the processing

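Of the 8 genes 7 were detected with every count minimum tried, on either strand and in each library alone. The count of members called different stayed at 2 with the either-strand column, with no filter, after thinning, with DESeq2 factors and with Mir451a left out of the totals (an alternative chosen after seeing the data), and was 3 with TMM factors, where Mir328 was added. The median over the 8 genes of their mean level, 411 CPM, was 549 CPM in the either-strand column, 132 when scaled by all reads of the library and 509 per 100 bases of hairpin. These changes follow from another denominator. With the main denominator, the median ran from 363 to 460 CPM in single libraries. The summed share became 1.29% in the either-strand column and 2.70% without the 10 most abundant genes, and ran from 0.898% to 1.01% in single libraries. The log2 difference of Mir34a turned from 0.11 to -0.041 in the either-strand column, -0.11 with TMM factors, -0.083 with DESeq2 factors and -0.012 without Mir451a in the totals. Over all detected genes, 78 were called higher and 34 lower in replicate 1, but 46 and 52 with TMM factors, 49 and 48 with DESeq2 factors, and 48 and 40 in the either-strand column.

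No paired analysis was possible because the labels give a single group. Depth limits Mir34b, at 3 and 2 counts, and the fold of Mir212, at 31 and 40 counts.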
